A study of Mus musculus with 8 samples.

Results

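Promoters of zinc finger genes were examined in GS (germline stem) cells. GS cells are grown from spermatogonia and include the stem cells of the male germline. The members were the genes on autosomes whose symbol begins with Zfp, Zscan or Zkscan followed by a digit. They were 188 of the 9224 genes in the promoter table, 174 named Zfp, 8 named Zscan and 6 named Zkscan, and they held 3379 of its 203645 measured cytosines. Another 3 genes with such symbols, with 57 cytosines, lay on the X chromosome and were not members. The symbol is the only criterion, so that proteins with other types of zinc finger, such as the RNA-binding Zfp36l1, are included.

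Methylation was measured by reduced representation bisulfite sequencing (RRBS), in which DNA is cut by MspI at CCGG and bisulfite converts unmethylated cytosines. The methylation level of a cytosine is the percentage of reads in which it stayed a cytosine. There were 8 GS lines of the B6 background and WT genotype with 1 library each, 4 from control-F1 mice born by natural mating without treatment (lines 29, 37, 44 and 45) and 4 from ICSI-F1 mice born by intracytoplasmic sperm injection (lines 11, 17, 20 and 21). All lines were grown in the same medium with FGF2 and GDNF after sorting of CD9-positive spermatogonia from mature testes. The line numbers also appear as numbers of single F1 mice in the study's supplement, so that each line seems to come from a different mouse, and p-values measure the spread between these lines. The comparison asks whether promoter methylation in the germline differed between ICSI-F1 and control-F1 mice.

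Most Zfp, Zscan and Zkscan genes encode proteins with an array of C2H2 zinc fingers that binds DNA. Many carry a KRAB domain, which recruits TRIM28 and the histone methyltransferase SETDB1 to silence transposons, and Zscan and Zkscan proteins carry a SCAN domain through which such proteins pair. The genes have multiplied in tandem clusters, above all on chromosome 7 in the mouse, where 48 of the 188 members lay.

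Sequences are given for the promoter stretches that show how levels differed among the members, all from GRCm38 (mm10), 5′ to 3′ on the strand named. In the first 4, capitals mark the measured CpGs, except that the last base of the *Zfp59* stretch, a measured cytosine whose CpG is split by the gene start, is in lower case. Among promoters with at least 3 cytosines, *Zfp872* (chr9:22187400-22187563, plus strand) was the most methylated and *Zfp536* (chr7:37774574-37774648, minus strand) varied most between lines. Their marked cytosines lie away from the gene start, 535 to 682 bases before it in *Zfp872* and 943 to 997 in *Zfp536*. *Zfp961* (chr8:71950929-71951037, plus strand) and *Zfp59* (chr7:27838476-27838606, plus strand, chosen after its values were seen) each hold a highly methylated cytosine among unmethylated ones.
Zfp872: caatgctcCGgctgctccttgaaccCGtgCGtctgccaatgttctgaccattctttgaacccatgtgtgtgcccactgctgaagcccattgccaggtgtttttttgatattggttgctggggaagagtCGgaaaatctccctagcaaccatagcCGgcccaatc
Zfp536: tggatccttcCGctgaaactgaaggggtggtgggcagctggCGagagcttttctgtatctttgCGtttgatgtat
Zfp961: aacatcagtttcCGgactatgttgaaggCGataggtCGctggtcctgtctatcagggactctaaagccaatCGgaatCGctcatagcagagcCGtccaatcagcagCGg
Zfp59: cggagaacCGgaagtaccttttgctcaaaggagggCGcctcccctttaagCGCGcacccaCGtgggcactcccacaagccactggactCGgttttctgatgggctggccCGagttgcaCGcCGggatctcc

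The next 3 surround single cytosines at which the groups differed by more than 20 percentage points, with the MspI site CCGG in capitals. They are *Zfp354c* (chr11:50828439-50828480, minus strand), *Zfp112* (chr7:24111484-24111525, plus strand) and *Zfp119a* (chr17:55879250-55879291, minus strand). The first pair is the same 42 bases. All of the stretches shown lie upstream of the gene start and overlap no annotated UTR.
Zfp354c: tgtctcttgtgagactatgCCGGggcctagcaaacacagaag
Zfp112: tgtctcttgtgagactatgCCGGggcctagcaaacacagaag
Zfp119a: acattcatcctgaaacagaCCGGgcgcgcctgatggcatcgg

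The lines had a median of 41 to 82 reads per cytosine before the scaling of coverage, and 42 to 80 at member cytosines, with line 37 the shallowest. No label names a batch, but the read numbers in the study's methods put the lines into 2 groups, called library sets here by inference, each with 2 lines of either group, set 1 (lines 29, 37, 11 and 17) and set 2 (lines 44, 45, 20 and 21). Methylation was higher in set 2 at 154 of the 166 member promoters with at least 3 cytosines, or 92.8%, so results are shown by set too. Every set 2 line was above every set 1 line at 26.5% of these members and at 30.8% of all promoters, so the shift was not particular to members. Of 19 germ cell genes, 10 were in the table, and the 9 with at least 3 cytosines, among them *Dazl*, *Ddx4* and *Sycp1*, had promoter levels of 2.45% to 9.09% (median 7.88%). The 7827 other autosomal genes outside the member list had a median of 5.55%, so low levels were not particular to germ cell genes. RNA from these cells was not analysed here, and the cell type was not checked.

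Promoters of zinc finger genes were methylated at a low level. Over the 166 members with at least 3 cytosines, the median promoter level, averaged over all 8 lines, was 5.19% (quartiles 3.11% and 7.96%), against 5.55% for 7827 other autosomal genes. A level under 10% was found in 141 members (84.9%) and in 76.7% of the other genes. Only *Zfp872* reached 50%, which is 0.602% of the members, whereas 555 of the other promoters (7.09%) did. These shares describe the table and were not tested, since genes are not replicates.

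The members stood apart from other genes outside CpG islands, shores and shelves. Cytosines outside islands, shores and shelves made up 24.0% of the member cytosines (811) and 11.4% of those of other genes, and 80 members (42.6%) had all their cytosines there, against 26.9% of the other genes. With cytosines inside CCGG set aside and described separately, 619 such member cytosines in 70 genes had mean levels of 1.47%, 2.56%, 3.92% and 3.93% in control-F1 lines 29, 37, 44 and 45, and of 0.776%, 1.39%, 3.25% and 2.55% in ICSI-F1 lines 11, 17, 20 and 21. At 16764 such cytosines of other genes the lines had 13.1%, 13.3%, 16.4% and 15.1%, and 13.4%, 13.9%, 15.9% and 15.7%. The members were thus lower there in each of the 8 lines. In shores outside CCGG the order was reversed in each line. The 230 member cytosines there averaged 7.08% and those of other genes 5.05%, and they include cytosines of *Zfp872* and *Zfp536* described below. In shelves outside CCGG, 13 member cytosines of 1 gene averaged 2.77% and those of other genes 12.3%. In islands outside CCGG, averages over 4 ranges of distance from the start were 2.06% to 2.49% for members and 2.00% to 2.34% for other genes.

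The gap widened with distance from the gene start. Within 100 bases of it, 406 member cytosines outside islands, shores, shelves and CCGG averaged 2.53% and those of other genes 6.60%. Between 101 and 250 bases the values were 2.31% (165 cytosines) and 12.5%, and between 251 and 500 bases 2.39% (47 cytosines) and 23.1%. Beyond 500 bases the members had only 1 such cytosine, at 15.0%, while other genes averaged 44.7%. Up to 500 bases, where the last range rests on 47 cytosines, member levels stayed between 2.31% and 2.53% while those of other genes rose.

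**Figure D1:**
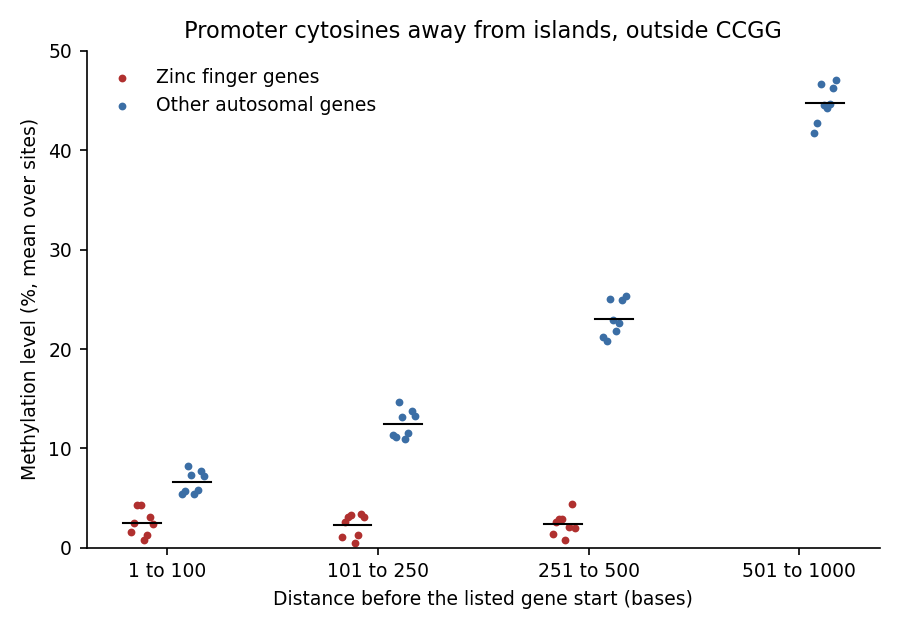
Mean methylation level (%) of promoter cytosines outside islands, shores, shelves and CCGG, by distance before the listed gene start in bases, with 1 point for each of the 8 lines in each bin. Black bars are means over lines. Member means are 2.53%, 2.31% and 2.39% up to 500 bases (bins under 20 cytosines are left out) and those of other genes climb from 6.60% to 44.7% on average.

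The density of CpGs was similar in both. In the 1 kb before the start, the 80 members with all cytosines outside islands, shores and shelves had a median of 16 CpGs, a GC content of 44.9% and an observed to expected CpG ratio of 0.326. For 2369 other genes of this kind, the values were 18, 48.2% and 0.319. Among those with at least 3 cytosines outside CCGG, 0 of 57 members and 389 of 1421 other genes (27.4%) had a promoter level of 10% or more. With 10 to under 20 CpGs, the median level was 2.18% in 27 members and 5.16% in other genes, of which 43.8% reached 10%. With 20 to under 30 CpGs it was 2.59% in 18 members and 2.74%, with 19.3% of other genes at 10% or more. With 30 to under 40 CpGs the medians were alike, at 2.29% in 9 members and 2.23%, and 5.24% of other genes reached 10%. The gap was thus seen at the lower densities.

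Promoter motifs were counted in the RefSeq window from 250 bases before to 50 bases after the start, on both strands, for 155 members and 6753 other genes. The ETS motif CCGGAAG, which contains the MspI site, was present in 28.4% of the members and 19.2% of the other genes, and the YY1 motif CCATNTT in 18.7% and 12.7%. The GC box GGGCGG was found in 48.4% and 67.3%, CCAAT in 43.2% and 37.3%, the cAMP response element TGACGTCA in 4.52% and 3.24%, the NRF1 motif GCGCATGC in 3.87% and 5.05%, and TATAAA in 3.87% and 6.80%. CCGG itself was in 92.9% and 91.3%. The stretch of *Zfp59* shown above holds a match to the ETS motif near its 5′ end. These matches are descriptions of sequence and not binding sites.

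Nearly all high values in the members lay inside CCGG. Such cytosines were 647 of the 3379 (19%, and 17% in other genes), yet they were 74 of the 82 member cytosines with a level of 50% or more (90.2%) and 265 of the 278 with 20% or more (95.3%). In other genes these shares were 68.9% and 83.5%. Line means over the 647 member cytosines were 19.8%, 18.9%, 24.1% and 23.3% in the control-F1 lines and 19%, 20.8%, 22.7% and 23.1% in the ICSI-F1 lines. Over the 2732 member cytosines outside CCGG the line means, in the same order, were 1.66%, 2.50%, 4.48% and 3.77%, and 1.08%, 1.73%, 3.67% and 2.88%. In every line the level inside CCGG was several times that outside it.

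The strands of a CpG also differed inside CCGG. Among 190 member CpGs in CCGG measured on both strands, 61 (32.1%) had 1 strand at 50% or more and the other under 20%, and 0 had both at 50% or more. In other autosomal genes the split was about as common, at 3264 of 10644 such CpGs (30.7%), and 348 had both strands at 50% or more. Of 1153 member CpGs outside CCGG, 0 were split in this way and 1147 were under 20% on both strands. Of 68055 in other genes, 0 were split. At *Zfp961*, 12 cytosines of the stretch shown lay outside CCGG and had 0.913% to 3.41%, while the pair in CCGG had 4.32% on 1 strand and 61.7% on the other. At *Zfp59*, 14 cytosines outside CCGG had 1.69% to 3.20%, and 1 cytosine in CCGG was at 100% in all 8 lines with 4.04% on its other strand.

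The level inside CCGG went with the distance to the neighbouring CCGG, in classes chosen after the values were seen. When the next CCGG before the cytosine on its own strand was 31 to 150 bases away, the 264 member cytosines had a median of 29.1%, and 218 of them (82.6%) reached 20%. When it was over 150 bases away, the median of 251 cytosines was 5.07% and 11 (4.38%) reached 20%. Within the class of 31 to 150 bases, the median was 24.9% where the next CCGG after the cytosine was within 150 bases, 48.9% at 151 to 300 bases and 93.9% beyond 300 bases. Other autosomal genes had the same order, with 25.1%, 51.7% and 93.4%. Whether the level at these cytosines is set by the genome or by the library preparation was not tested.

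**Figure D2:**
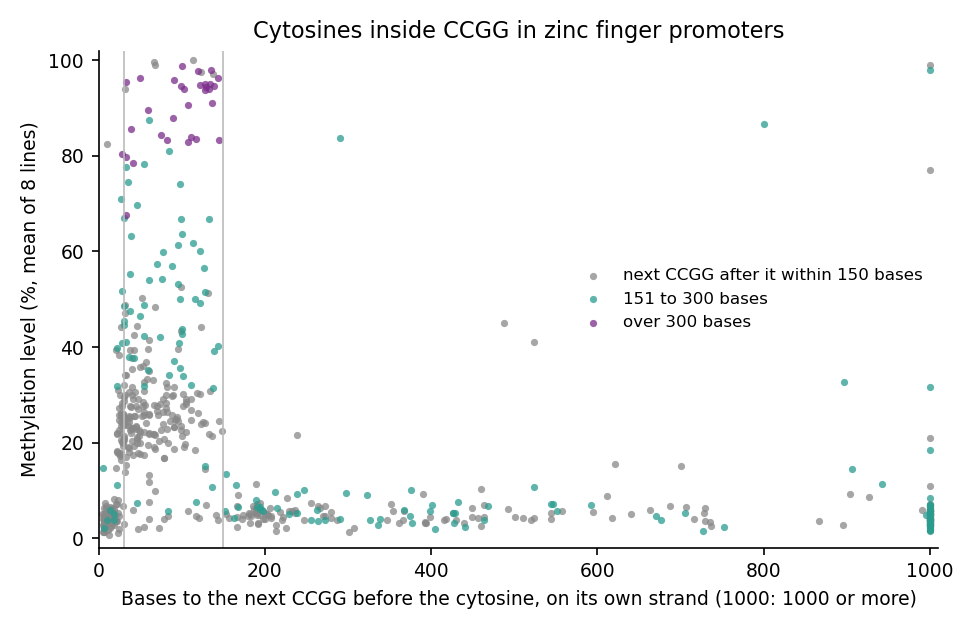
Methylation level (%, mean of 8 lines) of each member cytosine inside CCGG against the bases to the next CCGG before it on its own strand, coloured by the distance to the next CCGG after it. Vertical lines stand at 30 and 150 bases, and between them 218 of 264 cytosines reach 20%, while 11 of 251 do beyond 150 bases.

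With cytosines inside CCGG left out, the members were more uniform. The median over 147 promoters was 2.29% (quartiles 1.79% and 2.89%), and 2.22% in other genes. Just *Zfp872* (93.1%) and *Zfp536* (33.4%) were at 10% or more, followed by *Zfp42* at 7.35%. The members at 20% or more were thus 1.36% of 147, against 5.83% of the other genes. Outside CCGG, 2703 of the 2732 member cytosines (98.9%) were under 10%, and the 13 at 20% or more lay in 4 genes, 6 in *Zfp872*, 5 in *Zfp536* and 1 each in *Zfp598* and *Zfp638*. These 13 lay 561 to 997 bases before the start. *Zfp598* was named after its values were seen.

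**Figure D3:**
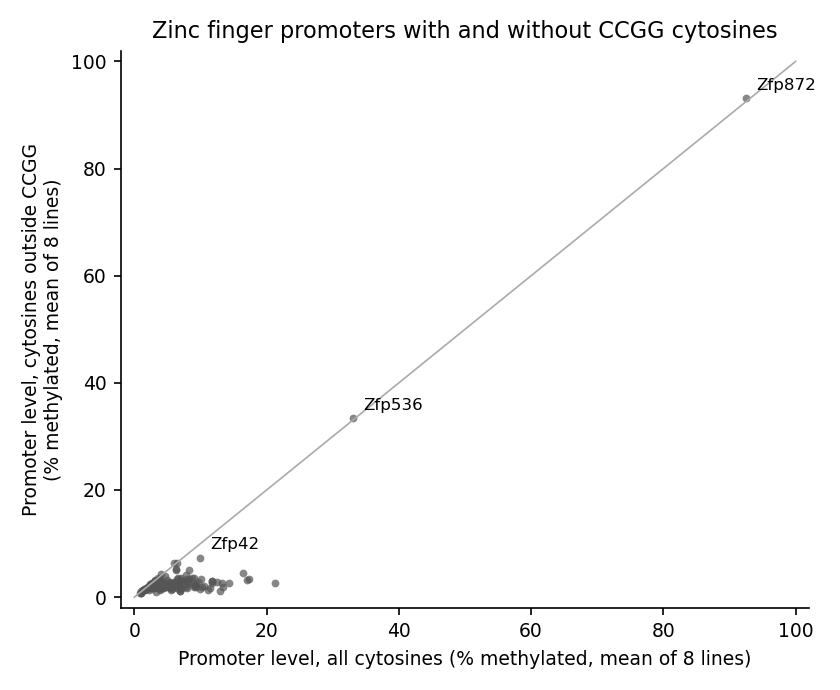
Promoter methylation level (%, mean of 8 lines) of each of the 147 members with at least 3 cytosines outside CCGG, computed from all cytosines (horizontal) and from those outside CCGG (vertical), with the diagonal of equal values. *Zfp872* and *Zfp536* stay on the diagonal at 93.1% and 33.4% outside CCGG, and all other members lie at 7.35% or less on the vertical axis.

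*Zfp872* (ENSMUSG00000074472, chromosome 9, 22188090 to 22199792) had 98.0%, 97.3%, 90.2% and 89.1% in control-F1 lines 29, 37, 44 and 45, and 83.6%, 94.7%, 93.4% and 93.5% in ICSI-F1 lines 11, 17, 20 and 21. All lines were highly methylated and the groups overlapped. Each of its 8 cytosines, marked in the stretch above, was between 82.5% and 99.0%, with at least 34 reads in every line, and 7 of them lay in repeat sequence. *Zfp536* (ENSMUSG00000043456, chromosome 7, 37569629 to 37773641), a regulator expressed mainly in the brain, had 31%, 8.27%, 43.0% and 37.4% in the control-F1 and 27.1%, 42.3%, 24.7% and 51.3% in the ICSI-F1 lines. Line 37 was far below the others, and the difference of 6.4 percentage points became −0.815 without it. Its 6 cytosines outside CCGG ranged from 18.7% to 42.4%.

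Most of the other members with the highest levels were low outside CCGG or had no cytosine there. *Zfp638*, which encodes a nuclear RNA-binding protein, had 29%, 52.4%, 44.8% and 43.0% in the control-F1 lines and 32.1%, 41.5%, 38.1% and 53.2% in the ICSI-F1 lines over 4 cytosines, 3 of them in CCGG and the fourth at 71.9%. *Zfp120* (36.7%) and *Zfp354c* (35.3%) had all their cytosines in CCGG. The level of *Zfp141* was 26.2%, and 3.29% outside CCGG, and that of *Zkscan4* was 21.3% and 2.71%. *Zfp770*, *Zfp119a* and *Zfp994* had 1.74% to 2.51% outside CCGG. Among members with fewer than 3 cytosines, *Zfp992* (98.0%, 1 cytosine), *Zfp764* (86.6%, 1 cytosine) and *Zfp26* (50.9%, 2 cytosines), named after their values were seen, reached 50%, all in CCGG. The lowest promoters were *Zfp68* (0.793%), *Zfp35* (0.953%) and *Zscan2* (0.981%).

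Of 44 members listed for known roles, 15 were in the table and the other 29, among them *Zfp57*, *Zscan4a* and *Zscan10*, were not analysed here. Their median level was 5.26%, and 13 of the 15 were under 10%. *Zfp445*, which binds imprinting control regions, had 2.87% over 2 cytosines, and *Zfp568*, a KRAB protein that represses a placental *Igf2* transcript, had 5.04%. *Zfp541*, which acts in meiotic spermatocytes, had 4.22%. Among regulators of blood, fat and nerve cell development, *Zfp318* had 5.26%, *Zfp521* 3.91% and *Zfp423* 5.94%. The Nlz family members *Zfp503* and *Zfp703* had 11.8% and 6.87%. *Zfp148*, which binds GC-rich DNA, had 5.34%, *Zfp609* had 6.76% and *Zfp36l1*, whose protein promotes decay of mRNAs with AU-rich elements, had 4.76%. Apart from *Zfp536* and *Zfp42*, all were between 0.710% and 2.98% outside CCGG.

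*Zfp42* (ENSMUSG00000051176, chromosome 8, 43295067 to 43306980) encodes REX1, a marker of pluripotent cells. Its level over 26 cytosines was 3.18%, 7.21%, 19.8% and 9.46% in control-F1 lines 29, 37, 44 and 45, and 3.86%, 6.61%, 12% and 17.2% in ICSI-F1 lines 11, 17, 20 and 21. The lines of set 2 were all above those of set 1, in both groups. The group means were the same at 9.92% ± 7.10 and 9.92% ± 5.92 (SD, n = 4), and the difference was 0.0380 percentage points in set 1 and −0.0469 in set 2.

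Clustered members with at least 3 cytosines outside CCGG were low there. With gaps of at most 500 kb, 7 clusters had 5 or more members, 4 of them on chromosome 7. In the cluster on chromosome 17 (21450374 to 23193252), all 78 cytosines of 11 members lay outside islands, shores and shelves, and promoter levels ran from 1.35% (all cytosines) to 21.5% in *Zfp994*. Outside CCGG, the 8 of these members with at least 3 cytosines had 1.26% to 6.44%. The cluster of *Zfp180*, *Zfp112* and 5 more genes on chromosome 7 (24081924 to 24515419) had 1.57% to 3.34% outside CCGG by the same limit. In each of the 7 clusters, the members with at least 3 cytosines outside CCGG were at 6.44% or less there.

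The mean over member promoters did not separate the groups. It was 7.58%, 7.66%, 10.7% and 9.92% in control-F1 lines 29, 37, 44 and 45, and 6.85%, 8.10%, 9.60% and 9.31% in ICSI-F1 lines 11, 17, 20 and 21. The groups overlapped, and the sets were further apart, with means of 7.55% and 9.87%, than the groups. The group means were 8.96% ± 1.57 and 8.47% ± 1.26 (SD, n = 4), a difference of −0.490 percentage points, which was −0.141 in set 1 and −0.838 in set 2 and ranged from −0.949 without line 29 to 0.0482 without line 11 and 0.0798 without line 44. Outside CCGG it was −0.851 percentage points (4.05% ± 1.41 and 3.20% ± 1.14), with −0.593 and −1.11 in the sets. Other autosomal promoters differed by 0.293 and, outside CCGG, by −0.00893. No test was made of these means, since the members were chosen as a list.

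**Figure D4:**
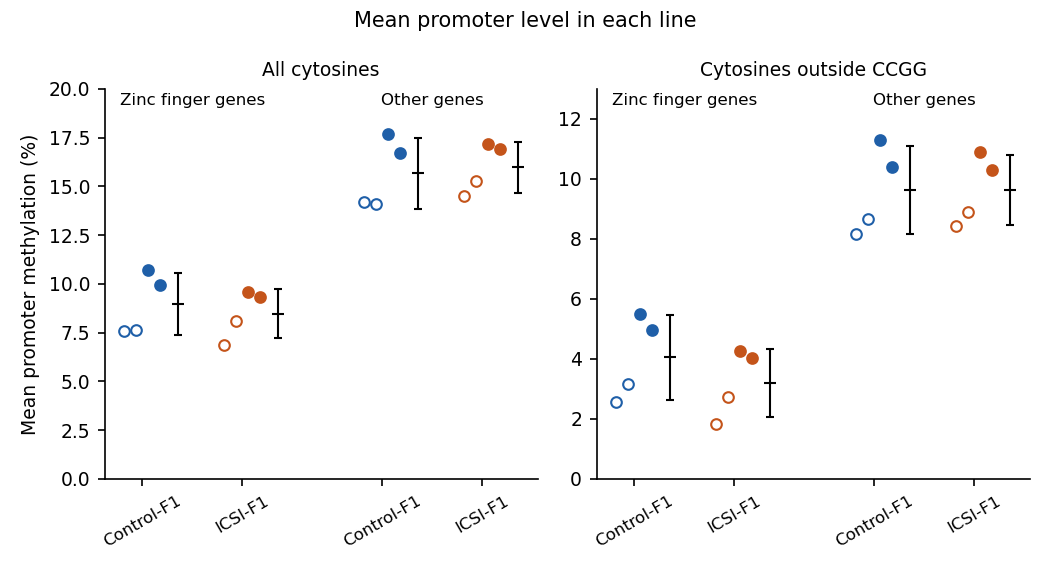
Mean promoter methylation (%) in each line for zinc finger genes and other autosomal genes, from all cytosines (left) and from those outside CCGG (right, with its own scale), for control-F1 (blue) and ICSI-F1 (orange), with open circles for library set 1, filled circles for set 2 and bars for mean ± SD (n = 4). Filled circles lie above open circles in every group, with set means of 7.55% and 9.87% for the zinc finger genes over all cytosines.

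More member promoters were lower than higher in the ICSI-F1 lines. Of the 166, 112 (67.5%) had a lower and 54 a higher mean, against 56.2% lower among other genes, and the median difference was −0.739 percentage points, against −0.165. No test was made of this shift over the list, and the SD of the list's mean between lines was 1.57 and 1.26 percentage points in the groups. In the limma test on the log2 ratio of methylated to unmethylated reads over all 8174 promoters, 0 members passed an adjusted p of 0.05 (percentage called over all promoters 0), and the smallest adjusted p was 1.000. At an unadjusted p under 0.05 there were 2 members (1.20%), both lower, where all promoters gave 2.87% in either direction and 1.53% lower. With the library set in the model, 13 members (7.83%) had such a p, 2 higher and 11 lower, where all promoters gave 5.20%, with 2.17% higher and 3.03% lower, and the smallest adjusted p of a member was 0.662.

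The 2 members were *Zfp420* and *Zfp516*. *Zfp420* (ENSMUSG00000058402, chromosome 7, 29859979 to 29876505) had 1.45%, 3.34%, 4.23% and 5.66% in the control-F1 lines and 0.326%, 0.602%, 2.46% and 1.05% in the ICSI-F1 lines over 10 cytosines. In each library set its ICSI-F1 lines were below its control-F1 lines, but the groups overlapped through line 29. The log2 ratio differed by −1.72 ± 0.69 (SE, limma, unadjusted p = 0.0294, adjusted p = 1.000). *Zfp516*, a regulator of brown fat genes, had 4.32%, 1.80%, 7.88% and 4.90%, and 0.330%, 0.561%, 4.74% and 0.703%, with ICSI-F1 line 20 above the other ICSI-F1 lines and the difference in log2 ratio at −2.01 ± 0.85 (SE, limma, unadjusted p = 0.0376, adjusted p = 1.000). *Zfp692*, *Zfp770* and *Zfp148* followed, with unadjusted limma p of 0.0540, 0.0543 and 0.0681.

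The groups did not overlap at 2 member promoters, both lower in ICSI-F1 lines, or 1.20% against 0.771% of all promoters. At 0 members were all ICSI-F1 lines higher, where all promoters gave 0.563%. *Zfp112* (ENSMUSG00000052675, chromosome 7, 24112314 to 24127952) had 9.11%, 13.3%, 11.8% and 9.27% in the control-F1 lines and 6.49%, 8.34%, 7.56% and 7.34% in the ICSI-F1 lines, a difference of −3.44 percentage points. It was −0.374 with the cytosines in CCGG left out, and the groups then overlapped. Outside CCGG, of 147 members only *Zfp541* had groups that did not overlap, lower in the ICSI-F1 lines (0.680%, against 0.829% of all promoters), and 0 were higher (against 0.462%). *Zfp541* (ENSMUSG00000078796, chromosome 7, 16061814 to 16096334) had 3.50%, 4.79%, 8.28% and 3.64%, and 3.27%, 3.48%, 3.35% and 3.4%, over 51 cytosines of an island. Its control-F1 values were spread by line 44, and the difference of −1.68 percentage points was −0.602 without it. For both promoters the exact two-sided permutation test gave p = 0.0286, the smallest that 4 lines against 4 allow, and an adjusted value of 1 over all promoters. At that smallest p, an adjusted value under 0.05 would need most promoters to reach it. The adjusted value thus cannot speak to either promoter.

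*Zfp397* was among the 5 members with the largest range over lines, with 0%, 0.473%, 16.9% and 6.37%, against 0%, 0%, 1.81% and 0% in ICSI-F1 lines, over 14 cytosines outside CCGG. The high lines were those of set 2, and the difference of −5.48 percentage points was −0.236 in set 1 and −10.7 in set 2 (exact two-sided permutation test, p = 0.257).

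At single cytosines, the study took differences of more than 20% and left out sites at which any sample went the other way. This was read here as a rule that asks for group means that differ by more than 20 percentage points and for every ICSI-F1 line to lie on the same side of the mean of the control-F1 lines. Over the whole table it was met at 557 cytosines higher and 103 lower in ICSI-F1 lines. The study reported fewer sites of either kind among more covered sites, so this reading does not reproduce its calls. Among members, the rule was met at 2 cytosines that were higher in ICSI-F1 lines, 0.0592% of 3379 against 0.274% over the whole table, and at 2 that were lower, 0.0592% against 0.0506%. All 4 lay in CCGG and outside islands, shores and shelves. Outside CCGG, 0 member cytosines met the rule, where the whole table gave 0.161% higher and 0.0367% lower. In the moderated quasi-binomial test over 196818 cytosines, 0 of the 3306 member cytosines tested passed an adjusted p of 0.05 (percentage called over all cytosines 0), and the smallest adjusted p was 0.533. At an unadjusted p under 0.05 there were 277 (8.38%), 64 higher and 213 lower, where the table gave 7.06%, with 2.60% higher and 4.47% lower.

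The cytosine of *Zfp354c* (ENSMUSG00000044807), at position 50828460 of chromosome 11 and 736 bases from the start, had 79.4%, 87.8%, 100% and 86.1% in the control-F1 lines and 64.1%, 68.7%, 65.2% and 64.9% in the ICSI-F1 lines, with 36 to 92 scaled reads. It was the only one of the 4 at which the groups did not overlap. The means were 88.3% ± 8.60 and 65.7% ± 2.02 (SD, n = 4), and the difference of −22.6 percentage points was −17.2 in set 1, −28.0 in set 2 and −25.6 to −18.7 with a line left out (moderated quasi-binomial test, limma moderation, unadjusted p = 0.00216, adjusted p = 0.702). The promoter mean of *Zfp354c* differed by −11.6 percentage points, −10.7 in set 1 and −12.5 in set 2, and its groups overlapped. Another of its cytosines, at position 50828309, differed by −19.6 percentage points. Its control-F1 lines ran from 7.32% to 78.9% and its ICSI-F1 lines from 13.6% to 44.6%. The cytosine of *Zfp112* (position 24111504 of chromosome 7, 810 bases from the start) had 50%, 92.5%, 55.0% and 32.7%, and 14.3%, 27.1%, 40.9% and 48.3%. Here line 37 stood out, and the difference of −24.9 percentage points was −13.3 without it, −50.6 in set 1 and 0.766 in set 2.

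These 2 cytosines past the rule share their 42 bases, which occur 15188 times on both strands of chromosomes 1 to 19, X and Y of GRCm38. The 42 bases lie in masked repeat sequence, whereas the 150 bases around each cytosine occur once. Another 2 measured cytosines, in the promoters of *Bsph1* and *Cdc37*, lie in the same 42 bases. At *Bsph1* the level was 81.0% ± 18.7 in the control-F1 lines and 92.9% ± 9.65 in the ICSI-F1 lines, and at *Cdc37* 13.8% ± 5.13 and 18.8% ± 5.54 (SD, n = 4), so that both went the other way. Repeat sequence held 3.53% of all cytosines in the table and 15.8% of those past the 20-point rule.

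The 2 cytosines with higher values in ICSI-F1 lines were those of *Zfp119a* and *Zfp961*. That of *Zfp119a* (ENSMUSG00000057835, position 55879271 of chromosome 17) had 69.7%, 39.5%, 100% and 90.9% in the control-F1 lines and 91.2%, 96%, 100% and 97.2% in the ICSI-F1 lines, with 20 to 38 scaled reads. Line 37 was lowest, and the difference of 21.1 percentage points was 9.23 without it, 39.0 in set 1 and 3.16 in set 2. That of *Zfp961* (ENSMUSG00000052446, position 71950942 of chromosome 8) had 33.3%, 28.4%, 76.8% and 63.0%, and 59.6%, 73.3%, 72.1% and 86.7%, with the low values in control-F1 lines 29 and 37. The difference of 22.5 percentage points was 35.6 in set 1 and 9.47 in set 2. In the moderated quasi-binomial test (limma moderation) the unadjusted p was 0.00213 for *Zfp112*, 0.00738 for *Zfp119a* and 0.0290 for *Zfp961*, with an adjusted p of 0.702 for each.

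Line 37 was also the lowest line at member cytosines with CCGG neighbours at like distances. The next CCGG lay 39 bases before and 367 bases after the cytosine of *Zfp119a*, and 113 and 280 bases for *Zfp961*. Over the 30 member cytosines with 31 to 150 bases before and over 300 after, control-F1 lines 29, 37, 44 and 45 had 88.6%, 72.3%, 95.4% and 94.6% and ICSI-F1 lines 11, 17, 20 and 21 had 87.9%, 93.0%, 94.5% and 94.1%. Over the 55 with 151 to 300 bases after, they had 43.4%, 25.8%, 58.9% and 59.3%, and 41.4%, 39.1%, 55.6% and 64.1%. The part of this in the calls at *Zfp119a* and *Zfp961* was not tested. For the cytosines of *Zfp354c* and *Zfp112*, the next CCGG lay 4247 and 488 bases before and 150 bases after. They thus fall in the class over 150 bases before, where 11 of 251 member cytosines reached 20%.

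**Figure D5:**
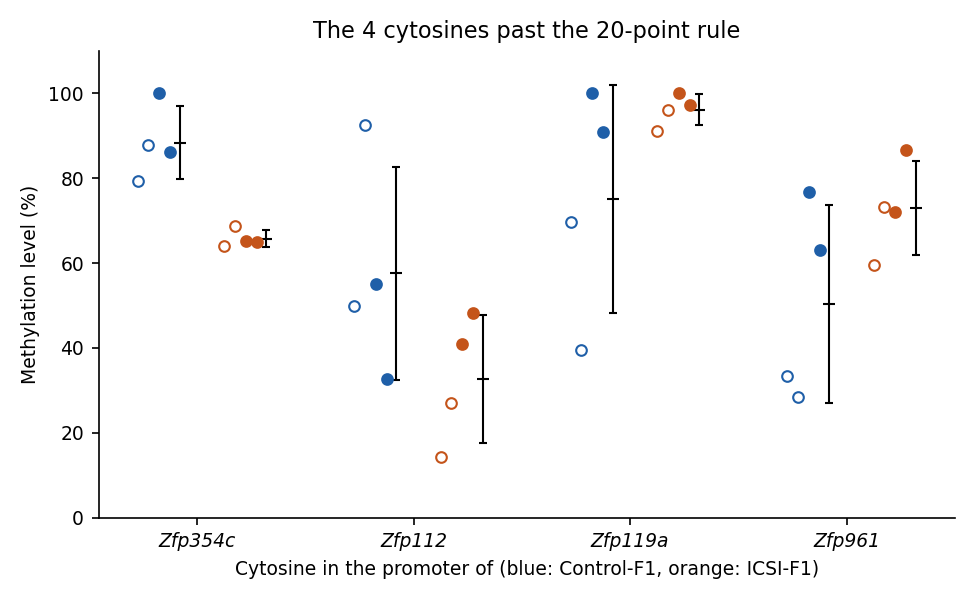
Methylation level (%) in each line at the 4 member cytosines past the 20-point rule, for control-F1 (blue) and ICSI-F1 (orange), with open circles for library set 1, filled circles for set 2 and bars for mean ± SD (n = 4). The groups are apart at *Zfp354c* (88.3% and 65.7%) and overlap at *Zfp112*, *Zfp119a* and *Zfp961*.

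Genes of the silencing machinery that KRAB zinc finger proteins recruit, from a list of 36, were low as well. The table held 17 of them, and the 16 with at least 3 cytosines had promoter levels of 2.07% to 14.5%. Their median was 4.98%, near the 5.55% of autosomal genes outside the member list. At none were the groups fully apart, and 0 had a limma p under 0.05, adjusted or not. Over all promoters the unadjusted share was 2.87%, and the groups did not overlap at 0.563% (higher) and 0.771% (lower). With 16 promoters, these counts thus say nothing particular about the list. *Setdb1*, the H3K9 methyltransferase of the complex, had 11.5%, 14.5%, 13.7% and 16.3% in the control-F1 lines and 10.3%, 11.3%, 13.6% and 11.9% in the ICSI-F1 lines. *Uhrf1*, which brings the maintenance methyltransferase to replicated DNA, had 14.3% ± 5.70 and 14.7% ± 1.54 (SD, n = 4). The median difference over the 16 promoters was −0.189 percentage points.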

How the data were processed

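RRBS libraries of the 8 GS lines were sequenced as paired reads of 150 bp. Per the submitters' processing notes, the authors used Trim Galore 0.5.0, Bismark 0.20.0 on mm10 and methylKit 1.16.0 (the methods give another methylKit version). Per the methods, they removed sites under 10 reads or above the 99.9 percentile, scaled coverage between samples, joined sites covered in all 8 lines with strands separate, and took promoters as 1 kb upstream of Ensembl 87 starts. The deposited values are coverage, methylated and unmethylated reads after scaling and rounding, and were treated as a normalized score, not as raw counts. The tests had assumed read numbers and were kept. The scaling factors, read from the values, were 1.00 to 1.88. In common RRBS protocols the MspI ends are filled in with cytosines, and the part of this in values at CCGG was not tested.

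A promoter level was the mean over its cytosines, and differences are ICSI-F1 minus control-F1. Promoters with at least 3 cytosines were tested with limma 3.58.1 (R 4.3.3) on log2((methylated + 1)/(unmethylated + 1)), and cytosines with a quasi-binomial model moderated by limma, both adjusted by Benjamini-Hochberg over the whole table. Both were tested on simulated data. For promoters raised by 20 percentage points among 8174, limma called 96.0%, and for cytosines raised by 20 points among 193786, the quasi-binomial test called 78.2%. The simulation drew each cytosine independently, around a level common to all lines of a group, and had no library sets. The real lines differed by set across promoters, so these percentages do not give the power in the real data. Sequences were read from GRCm38 with pyfaidx 0.9.0.4 and motifs from RefSeq windows. Read-based precision covers counting error only, since reads carried no molecular identifiers.

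The members and lists were chosen with earlier results of these data known. Genes named were the listed roles, members with a cytosine past the 20-point rule, the 10 highest and 3 lowest promoters, the 5 with the largest range over lines, up to 5 each way without overlap and the 5 smallest limma p-values. Alternatives changed the coverage minimum, strands, lines, library sets, thresholds, minimum cytosines and model. Leaving out CCGG was chosen after seeing the data.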

Additional observations from a re-analysis of the deposited data

Results flagged for a closer look

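In 88 groups of 4 lines tested with Dixon's criterion, 4 had a line far from the others, where chance gives about 1 in 20. For *Zfp397*, ICSI-F1 line 20 had a promoter level of 1.81% and the other ICSI-F1 lines 0%. For *Zscan2*, ICSI-F1 line 20 had 0.833% and the others 0%. For *Zfp516*, ICSI-F1 line 20 had 4.74% and the others 0.330% to 0.703%, with a gap of 0.915 of the range. For *Zfp872*, ICSI-F1 line 11 had 83.6% and the others 93.4% to 94.7%, with a gap of 0.883 of the range.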

How the results depend on the processing

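Of 273 values recomputed under alternatives, 230 stayed within limits (counts within 1.5 times, the mean over members within 1 SD between lines, named promoters of the same sign), 41 moved beyond them and 2 differences at named promoters changed sign. The mean difference over members, −0.490 percentage points, also passed 0 without line 44 (0.0798) or line 11 (0.0482). The difference at the promoter mean of *Zfp961*, 1.35 percentage points, was −0.212 to 2.86 percentage points with a line left out, negative without line 37, and −1.0 without CCGG. Member promoters whose groups did not overlap, 2 lower and 0 higher, became 1 lower with at least 30 reads, strands joined, CCGG left out or reads pooled over a promoter, 33 lower (19.9%, and 14% of all promoters) and 18 higher (10.8% and 17.2%) in set 1 alone, 49 lower (29.5% and 22.9%) and 16 higher (9.64% and 11%) in set 2 alone, and 2 to 11 lower and 0 to 4 higher with a line left out. Cytosines past the 20-point rule, 2 each way, became 1 higher and 1 lower with at least 30 reads, 1 higher with strands joined, 0 without CCGG, 20 higher (0.592%, and 0.871% of all cytosines) and 15 lower (0.444% and 0.211%) in set 1, 1 higher (0.0296% and 0.420%) and 4 lower (0.118% and 0.264%) in set 2, 7 higher at 15 points, 0 at 30 points, 0 higher and 1 lower where every line had to lie beyond the other group, and 0 to 8 higher and 1 to 4 lower with a line left out. Members at 50% or more, 1, became 4 with 1 cytosine enough, 0 with at least 10, and 10 at a threshold of 20%. Set counts compare 2 lines with 2. With a line left out fewer lines are compared, so promoter groups separate more readily. Shares over the whole table were computed only for the sets and for CCGG left out. In the other alternatives, counts of promoters without overlap and of cytosines past the rule thus say nothing particular about members. Member calls by limma and the quasi-binomial test were 0 in every alternative run. Over all cytosines the latter called 80 of 155863 with at least 30 reads and 70 of 192970 without line 44. Member cytosines tested there were 2490 and 3254, so at such small shares 0 member calls say nothing particular about the members. No paired analysis was possible because the groups share no line number. The causes were not tested. Line 37 had the fewest reads, with a median of 41 per cytosine. The 22 members with 1 or 2 cytosines entered the tests of cytosines but, except where 1 cytosine was enough, not those of promoters.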
